A study of Homo sapiens with 4 samples.

Results

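The genes examined here encode the subunits of the Polycomb complexes, the chromatin repressors that are best known as the opponents of the BAF remodelling complex. They were chosen by name, 33 in all, and were read from every probe set annotated with exactly 1 gene symbol. Of the 33, 29 had such a probe set, and all 29 passed the signal filter described below, out of 12286 genes tested among 19775 genes with a probe set of 1 symbol. BMI1 had only a probe set that carries 2 symbols, and RNF2, CBX8 and BAP1 are not analysed here. The measurements came from 4 single-colour Affymetrix arrays of SNU638, an established gastric cancer (GC) cell line. Cells carried sh-ACTL6A, a lentiviral short hairpin RNA against ACTL6A in the pLKO.1 vector kept under puromycin selection (2 arrays), or scramble RNA as the control (2 arrays). ACTL6A is an actin-like subunit of BAF and of the INO80 and TIP60 complexes. The treatment protocol names 2 hairpins, and no label ties either of them to an array. The arrays are titled sh-1, sh-2, scramble-1 and scramble-2, and these numbers are given here as replicates. A difference between hairpins and a difference between replicates of sh-ACTL6A cannot be told apart. Nothing in the labels shows that replicate arrays are independent cultures, and the p-values therefore reflect array-to-array spread that could be purely technical. In bulk RNA, fewer cells that express a gene and less of its RNA per cell cannot be told apart.

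Polycomb proteins keep developmental genes silent through 2 families of complexes. PRC2 methylates a lysine on the tail of histone H3 through EZH1 or EZH2, and PRC1 adds ubiquitin to histone H2A through RING1 or RNF2. BAF complexes evict Polycomb complexes from chromatin, and loss of BAF subunits is known from other tumours to leave cells dependent on EZH2. The question the comparison addresses is whether the transcripts of the Polycomb subunits themselves differed when ACTL6A was lowered.

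Each gene is given as its log2 signal, and each difference is sh-ACTL6A minus scramble on the log2 scale with its standard error (SE). A gene was read from its brightest probe set and was tested with limma if its mean log2 signal reached 5.63, the median of all non-control probe sets. ACTL6A itself read 10.16 and 10.32 on the sh-ACTL6A arrays, against 11.92 and 11.82 on the scramble arrays. It fell by 1.63 ± 0.14 (SE), a change of -67.7% (limma adjusted p = 0.0408), and was the only gene called at an adjusted p under 0.05, which is 0.00814% of the genes tested. The call was lost without scramble replicate 1 or scramble replicate 2 (limma adjusted p = 1 and 0.567). It was also lost after quantile normalisation (0.0528), with no filter on dim genes (0.0797), without the intensity trend (0.556), with every probe set tested (0.281) and with the t-test (0.844). SNU638 cells showed 6 of 7 epithelial markers above the threshold on these arrays, with EPCAM at 13.52 or more and CLDN4 below it. The summed linear signal of the epithelial list was 38404 and 44890 on the sh-ACTL6A arrays, against 45048 and 52014 on the scramble arrays. Leukocyte markers reached the threshold for 1 of the 5 in the table (ITGAM), with sums of 136 and 179 against 151 and 134. Fibroblast and endothelial markers reached it for 3 of 8, with sums of 648 and 559 against 722 and 526.

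None of the 29 Polycomb genes passed the test. limma called 0 of 29 at an adjusted p under 0.05, and the smallest adjusted p was 0.917 (CBX6). At an unadjusted p under 0.05, limma also counted 0 of 29, beside 5.5% of all genes tested. An ordinary t-test on the same values called 0 of 29 after adjustment and counted 1 at an unadjusted p under 0.05 (PHF19). The share of all genes under the t-test was not counted, so the 1 cannot be read as a result about PHF19. The median difference of the 29 genes was -0.05, beside 0.01 for all genes tested, and single differences lay between -0.36 (CBX6) and 0.60 (JARID2). The interquartile range of the Polycomb differences was -0.10 to 0.04, beside -0.12 to 0.15 over all genes. Groups did not overlap for 4 of 29 genes with sh-ACTL6A higher (13.8%), beside 19.3% of all genes, and for 2 of 29 with sh-ACTL6A lower (6.9%), beside 15.4% of all genes. The 4 were RBBP7, PHF19, AEBP2 and CBX2, and the 2 were RBBP4 and CBX6.

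A test that misses its threshold does not show equal levels, so the width of each interval matters. The 95% confidence interval lay within a difference of 1 in either direction for 28 of 29 Polycomb genes (96.6%), beside 81.7% of all genes, JARID2 being the exception. It lay within 0.5 in either direction for 14 of 29 (48.3%), beside 34.8% of all genes. The Polycomb genes were measured at a median log2 signal of 10.74, beside 9.54 over all genes tested. The median SE of a difference was 0.159 for the Polycomb genes, beside 0.186 over all genes. More genes were below 0 (20) than above it (9), a share above 0 of 31%, beside 51.9% of all genes. This share depended on the processing. It was 44.8% after median centring of the arrays and 55.2% when each gene was the mean of all its probe sets. The share over all genes was not counted under these settings. Median centring moved both medians up, to -0.015 for the Polycomb genes and 0.0409 for all genes.

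**Figure D1:**
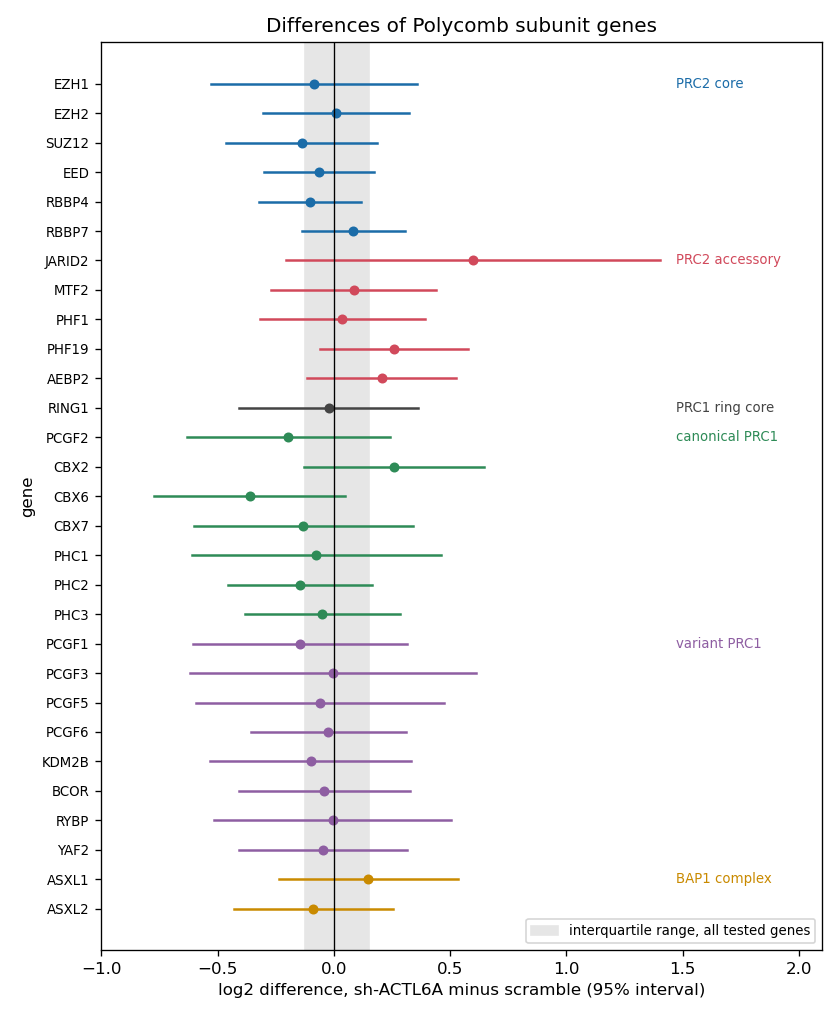
Difference of each of the 29 Polycomb genes (x axis, log2 scale, sh-ACTL6A minus scramble) with its 95% confidence interval from limma, coloured by complex, with genes down the y axis. The grey band is the interquartile range of all 12286 tested genes, and every interval crosses 0, with JARID2 (0.60) and CBX6 (-0.36) farthest from it.

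The PRC2 core comprises the methyltransferases EZH1 and EZH2, SUZ12 and EED, which the enzyme needs for activity, and the histone-binding proteins RBBP4 and RBBP7. Its 6 genes had a median difference of -0.07, with 2 above 0 and 4 below, and 0 were called. EZH2, the main methyltransferase of dividing cells, read 11.22 and 11.33 on the sh-ACTL6A arrays, against 11.35 and 11.18 on the scramble arrays. Its difference was 0.01 ± 0.13 (SE), with a 95% interval of -0.30 to 0.32, and the scramble arrays enclosed both sh-ACTL6A values. EZH1, which takes over in resting cells, read 9.13 and 9.56 on the sh-ACTL6A arrays, against 9.45 and 9.41 on the scramble arrays (-0.08 ± 0.19, SE). All 4 of its probe sets above the threshold were below 0, between -0.19 and -0.08, and none passed the test.

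SUZ12 read 12.23 and 12.57 on the sh-ACTL6A arrays, against 12.60 and 12.47 on the scramble arrays, a difference of -0.14 ± 0.14 (SE, limma adjusted p = 0.950). The value of sh-ACTL6A replicate 1 was the low one, and replicate 2 lay between the scramble arrays. EED, which binds the methylated lysine, differed by -0.06 ± 0.10 (SE), while its dimmer probe set, 210656_at, differed by 0.46 without passing the test. RBBP4 read 13.53 and 13.55 on the sh-ACTL6A arrays, against 13.73 and 13.56 on the scramble arrays (-0.10 ± 0.09, SE, limma adjusted p = 0.941). Its paralogue RBBP7 read 13.24 and 13.17, against 13.16 and 13.08 (0.08 ± 0.10, SE, limma adjusted p = 0.951). Both pairs of groups lay apart, in opposite directions, by less than 0.1 between the nearest arrays. RBBP4 and RBBP7 also serve other histone complexes and do not mark PRC2 alone.

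**Figure D2:**
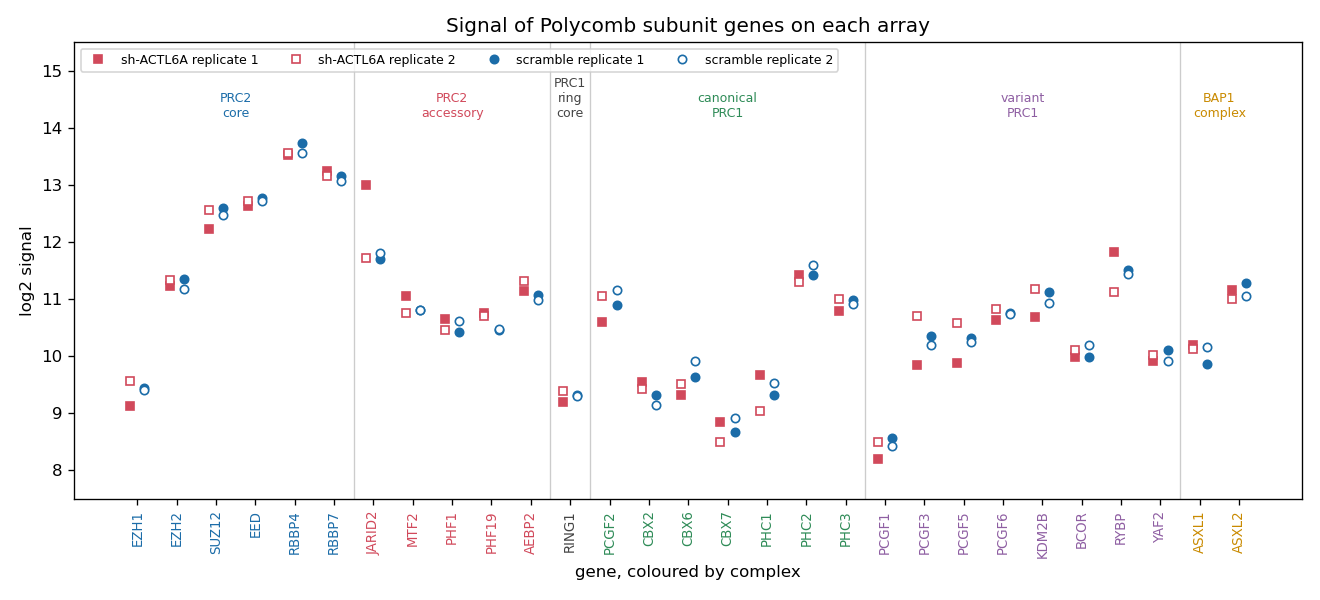
Log2 signal (y axis) of each Polycomb gene (x axis, by complex) on the sh-ACTL6A arrays (squares, left) and the scramble arrays (circles, right), filled for replicate 1 and open for replicate 2. Heights are not comparable between genes, and the widest separation within a group is that of JARID2 in sh-ACTL6A (12.99 and 11.72).

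The accessory subunits direct PRC2 to its sites. JARID2 and AEBP2 belong to one form of the complex, and the Polycomb-like proteins PHF1, MTF2 and PHF19, which bind DNA rich in CG dinucleotides, belong to the other. All 5 genes had differences above 0, with a median of 0.21, and 0 of 5 were called. The 2 sh-ACTL6A arrays were not alike in this: the median of the 5 genes against the scramble mean was 0.23 for replicate 1 and -0.04 for replicate 2.

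JARID2 read 12.99 and 11.72 on the sh-ACTL6A arrays, against 11.71 and 11.81 on the scramble arrays. The difference of 0.60 ± 0.35 (SE, 95% interval -0.21 to 1.40, limma adjusted p = 0.918) came from sh-ACTL6A replicate 1 alone, which stood 1.24 above the scramble mean while replicate 2 stood at -0.04. Without replicate 2 JARID2 was called (difference 1.24, limma adjusted p = 1.5e-05), and without replicate 1 it was not. Such a fit has 1 sh-ACTL6A array, which is assumed to vary as the 2 scramble arrays do, and the fit without replicate 2 called 2.73% of all genes tested. The next probe set of JARID2, 203297_s_at, had the same form, 11.65 and 10.97 on the sh-ACTL6A arrays, against 11.01 and 11.13 on the scramble arrays. The dimmest one, 240674_at, read 6.80 and 6.36, against 6.68 and 6.67 (-0.09 ± 0.33, SE). The log2 signal of the 3′ ACTB control probe set over the 5′ one, a measure of RNA integrity, was 1.21 and 0.78 on the sh-ACTL6A arrays, against 1.63 and 0.78 on the scramble arrays. It was thus higher on replicate 1 of each group, and its part in the JARID2 value was not tested.

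PHF19 had the least spread between replicates of the accessory genes. It read 10.75 and 10.71 on the sh-ACTL6A arrays, against 10.46 and 10.48 on the scramble arrays, a difference of 0.26 ± 0.14 (SE, 95% interval -0.06 to 0.58, limma adjusted p = 0.918). Both sh-ACTL6A values lay above both scramble values, and the same held for its second probe set, 227211_at, at 10.17 and 10.20, against 9.91 and 9.86. The third, 225533_at, differed by 0.0031 and its groups overlapped. MTF2 read 11.05 and 10.75 on the sh-ACTL6A arrays, against 10.81 and 10.82 on the scramble arrays (0.09 ± 0.15, SE, limma adjusted p = 0.968). Its 5 probe sets were all above 0, between 0.09 and 0.39, and 2 of the 5 had groups that did not overlap. The one with the largest difference, 203346_s_at, read 10.73 and 10.50, against 10.32 and 10.13 (0.39 ± 0.15, SE), and was not called among all probe sets (limma adjusted p = 0.96).

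AEBP2, a zinc finger protein that stabilises PRC2, read 11.14 and 11.32 on the sh-ACTL6A arrays, against 11.07 and 10.98 on the scramble arrays (0.21 ± 0.14, SE, limma adjusted p = 0.93). Its groups lay apart by less than 0.1, and its second probe set, close to the threshold, differed by -0.04. PHF1 read 10.65 and 10.46, against 10.43 and 10.61 (0.04 ± 0.15, SE), with overlapping groups.

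The promoters of MTF2 and PHF19 are shown because both genes had every probe set above 0 and share a match to the E2F motif. Windows were taken from RefSeq on GRCh38.p14, 250 bases before to 50 after each start site, and 28 of the 29 measured genes matched (not CBX2). The E2F letters TTTCCCGC, searched on both strands, occurred in windows of 3 of the 28 genes, SUZ12, MTF2 and PHF19. That is 6.67% of 45 windows, beside 1.63% of all 35116 windows. The motif was chosen with the differences known, SUZ12 lay below 0, and a match is a description of the letters and not a site of binding. PHF1, whose probe sets were also all above 0, had no match. The letters contain a CG dinucleotide, and the Polycomb windows held more of these (median 31, beside 14 over all windows). The shares were not adjusted for this. In the windows below, 5′ to 3′ on the gene's strand, capitals mark the match, which reads GCGGGAAA because it lies on the opposite strand. MTF2 is at chr1:93079033-93079332 (plus strand, match starting at position 6 after the start site), and PHF19 at chr9:120877139-120877438 (minus strand, match starting at position -152, counted from the start site). PHF19 has another start site window, at chr9:120868862-120869161, which holds 26 CG dinucleotides and no match and is not printed.
MTF2: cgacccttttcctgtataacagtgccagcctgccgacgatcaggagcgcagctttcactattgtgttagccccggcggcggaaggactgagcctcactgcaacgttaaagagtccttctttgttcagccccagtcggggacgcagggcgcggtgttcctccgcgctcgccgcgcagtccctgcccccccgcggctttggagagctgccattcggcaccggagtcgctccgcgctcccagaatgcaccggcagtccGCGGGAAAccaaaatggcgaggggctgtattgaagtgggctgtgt
PHF19: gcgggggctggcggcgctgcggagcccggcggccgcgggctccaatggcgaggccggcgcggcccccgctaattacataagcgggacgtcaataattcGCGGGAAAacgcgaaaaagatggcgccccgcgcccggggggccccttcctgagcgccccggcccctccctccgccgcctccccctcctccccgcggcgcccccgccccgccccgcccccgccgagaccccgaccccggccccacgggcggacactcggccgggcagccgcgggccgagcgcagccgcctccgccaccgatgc

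CG dinucleotides, the feature that Polycomb-like proteins bind, numbered 28 in the MTF2 window and 48 in this PHF19 window. The 45 windows of the Polycomb genes held a median of 31, beside 14 over all windows, with a range of 2 to 55. The GC box, GGGCGG, lay in windows of 23 of 28 genes (73.3% of their windows, beside 45% of all). The CCAAT box occurred in 14 of 28 (42.2% beside 34.6%) and the TATA box, TATAAA, in 3 of 28 (6.67% beside 11.5%). The ETS letters CCGGAAGT lay in 2 of 28 (4.44% beside 4.14%). The antioxidant response element, TGACNNNGC, lay in windows of 4 of 28 genes, RBBP4, PHF1, CBX7 and PCGF3 (8.89% of their windows, beside 13.3% of all).

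The catalytic core of PRC1 was covered by RING1, an E3 ligase for histone H2A. RING1 read 9.20 and 9.39 on the sh-ACTL6A arrays, against 9.32 and 9.31 on the scramble arrays (-0.02 ± 0.17, SE, 95% interval -0.41 to 0.36). The sh-ACTL6A arrays enclosed both scramble values.

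Canonical PRC1 reads the PRC2 mark through a chromobox (CBX) protein and compacts chromatin through the Polyhomeotic (PHC) proteins. Its 7 measured genes had a median difference of -0.13, with 1 above 0 and 6 below, and 0 were called. CBX6 had the smallest p of all Polycomb genes. It read 9.32 and 9.50 on the sh-ACTL6A arrays, against 9.63 and 9.92 on the scramble arrays, a difference of -0.36 ± 0.18 (SE, 95% interval -0.77 to 0.05, limma adjusted p = 0.917). Its second probe set, 202048_s_at, read 9.13 and 8.89 on the sh-ACTL6A arrays, against 9.43 and 9.84 on the scramble arrays (-0.63 ± 0.19, SE), and was not called among all probe sets (limma adjusted p = 0.96). On both probe sets every sh-ACTL6A value lay below every scramble value. Of the Polycomb genes with more than 1 probe set, CBX6 was the only one whose groups did not overlap on any of them. The share of all genes for which this holds was not counted, so it cannot be read as particular to CBX6.

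CBX2, another chromobox reader, differed in the other direction, at 9.55 and 9.42 on the sh-ACTL6A arrays, against 9.32 and 9.13 on the scramble arrays (0.26 ± 0.17, SE, limma adjusted p = 0.927). Its second probe set above the threshold, 240084_at, differed by -0.26 with overlapping groups, so the probe sets of CBX2 did not share a direction. The promoter of CBX6 is shown for comparison with those above, since the gene lay below 0. It is at chr22:38872167-38872466 on the minus strand, holds 47 CG dinucleotides and has no match to the E2F letters, so it has no capitals. SUZ12 also lay below 0 and has a match, so the CBX6 window does not tie the letters to a direction.
CBX6: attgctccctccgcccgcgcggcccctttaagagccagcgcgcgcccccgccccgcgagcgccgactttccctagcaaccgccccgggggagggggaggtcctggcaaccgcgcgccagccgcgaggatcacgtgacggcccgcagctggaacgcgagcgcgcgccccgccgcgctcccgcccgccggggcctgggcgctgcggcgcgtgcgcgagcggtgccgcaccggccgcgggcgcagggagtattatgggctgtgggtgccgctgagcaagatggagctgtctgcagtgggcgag

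The other chromobox gene, CBX7, read 8.84 and 8.49 on the sh-ACTL6A arrays, against 8.68 and 8.92 on the scramble arrays (-0.13 ± 0.20, SE). PHC2 read 11.42 and 11.30, against 11.42 and 11.59 (-0.15 ± 0.13, SE), and PHC1 and PHC3 differed by -0.07 ± 0.23 and -0.05 ± 0.14 (SE). PCGF2, also known as MEL18, read 10.61 and 11.06 on the sh-ACTL6A arrays, against 10.89 and 11.16 on the scramble arrays (-0.20 ± 0.19, SE). Its brightest probe set has the suffix x, by which the array maker marks probes that can match other transcripts, so its value is uncertain. The groups of CBX7, PHC1, PHC2, PHC3 and PCGF2 all overlapped.

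Variant PRC1 complexes hold RYBP or YAF2 in place of a chromobox protein, together with PCGF1, PCGF3, PCGF5 or PCGF6. Read from the brightest probe sets, all 8 measured genes had differences below 0, with a median of -0.04, and 0 were called. The median against the scramble mean was -0.21 for sh-ACTL6A replicate 1 and 0.05 for replicate 2, so the sh-ACTL6A arrays did not share the direction. The direction also depended on the probe set: averaged over bright probe sets, PCGF3, PCGF5, RYBP and YAF2 lay above 0. PCGF1, which joins KDM2B and BCOR in one variant complex, read 8.20 and 8.49 on the sh-ACTL6A arrays, against 8.56 and 8.42 on the scramble arrays (-0.15 ± 0.20, SE, limma adjusted p = 0.963). KDM2B, whose CXXC domain binds unmethylated CG-rich promoters, read 10.69 and 11.17, against 11.13 and 10.93 (-0.10 ± 0.19, SE). The groups of both overlapped, as did those of BCOR (-0.04 ± 0.16, SE).

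PCGF3 and PCGF5 share a variant complex. On the brightest probe set of each, the sh-ACTL6A arrays lay on either side of the scramble arrays. PCGF3 read 9.84 and 10.70 on the sh-ACTL6A arrays, against 10.35 and 10.20 on the scramble arrays (-0.0033 ± 0.27, SE). PCGF5 read 9.87 and 10.57, against 10.32 and 10.25 (-0.06 ± 0.23, SE). RYBP had the opposite form, with 11.83 and 11.12 on the sh-ACTL6A arrays, against 11.51 and 11.45 on the scramble arrays (-0.0051 ± 0.22, SE). A mean difference near 0 on these 3 probe sets thus came from sh-ACTL6A values that were far apart. Not all other probe sets shared the form. RYBP's 201846_s_at did, at 8.827 and 8.216 on the sh-ACTL6A arrays, against 8.217 and 8.373 on the scramble arrays. On 238084_at of PCGF3 the sh-ACTL6A arrays also enclosed the scramble arrays, but with replicate 1 the higher (7.61 and 6.94, against 7.33 and 7.58). On 229194_at and 227935_s_at of PCGF5 both sh-ACTL6A values lay above both scramble values (differences of 0.25 and 0.15). The probe sets of PCGF3 differed by -0.18 to 0.48. RYBP's other probe sets above the threshold both differed by 0.23, so its direction depended on the probe set. YAF2 and PCGF6, the subunit of a germline gene repressor, differed by -0.05 ± 0.16 and -0.02 ± 0.14 (SE).

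The deubiquitinase complex of BAP1 removes the PRC1 mark and was covered by its cofactors ASXL1 and ASXL2. ASXL1 read 10.20 and 10.13 on the sh-ACTL6A arrays, against 9.86 and 10.17 on the scramble arrays (0.15 ± 0.17, SE, limma adjusted p = 0.951). ASXL2 read 11.16 and 11.01, against 11.29 and 11.05 (-0.09 ± 0.15, SE, limma adjusted p = 0.967). Groups overlapped for both genes. Of the 6 probe sets of ASXL1, 5 were above 0, while those of ASXL2 above the threshold were split at 3 above and 2 below.

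The 29 genes were covered by 92 probe sets, 80 of them at or above the threshold, which gave a second reading within most genes. Over all 54613 non-control probe sets limma called 0 at an adjusted p under 0.05, which is 0%. At an unadjusted p under 0.05 it counted 1 Polycomb probe set higher (MTF2) and 1 lower (CBX6) of 92, beside 5.01% of all probe sets. Of the 80 bright probe sets, 38 lay above 0 and 42 below. Of the 22 genes with 2 or more of them, 8 had all on 1 side of 0 and 14 did not. The 3 above were MTF2, PHF19 and PHF1, and the 5 below were EZH1, RING1, CBX6, PHC1 and PCGF1. Without sh-ACTL6A replicate 1 the brightest probe sets of MTF2, PHF1, EZH1 and RING1 changed sign, and those of PHF19, CBX6, PHC1 and PCGF1 did not. PHC1 changed sign without sh-ACTL6A replicate 2 (0.24) and without scramble replicate 2 (0.029). PHF19, CBX6 and PCGF1 kept their sign whichever array was left out, PCGF1 with -0.0036 without sh-ACTL6A replicate 1. The 14 with both signs were EED and RBBP4 of the PRC2 core, the accessory subunits JARID2 and AEBP2, PCGF2, CBX2 and PHC3 of canonical PRC1, PCGF3, PCGF5, BCOR, RYBP and YAF2 of variant PRC1, and ASXL1 and ASXL2. Probe sets of a gene share the same RNA and are no replicates.

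**Figure D3:**
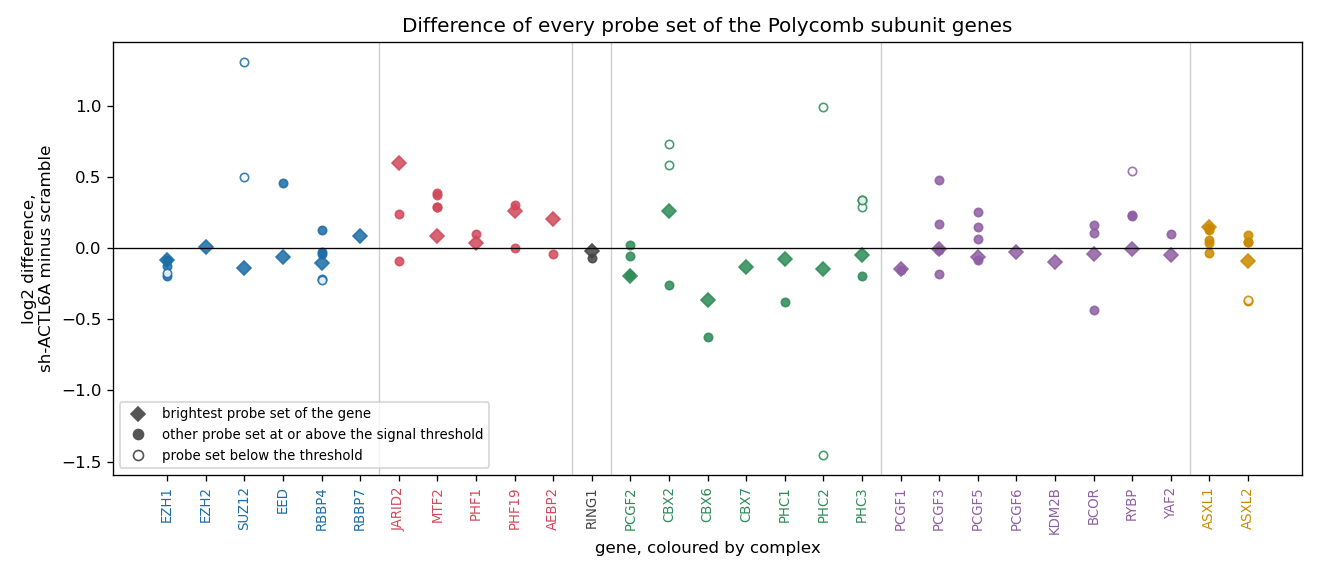
Difference of every probe set (y axis, log2 scale, sh-ACTL6A minus scramble) of each Polycomb gene (x axis, by complex). Diamonds are the brightest probe set of a gene, filled circles other probe sets at or above the signal threshold and open circles those below it, and filled points lie between -0.63 (CBX6) and 0.60 (JARID2).

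The spread between replicates differed between the groups. The root mean square difference of the 29 genes was 0.421 between the sh-ACTL6A arrays and 0.164 between the scramble arrays, beside 0.441 and 0.366 over all genes tested. Between the group means it was 0.174, beside 0.293 over all genes. The sh-ACTL6A replicate 1 array was the lowest of the 4 for 14 of 29 genes (48.3%), beside 23.7% of all genes, and the highest for 9 (31%), beside 29.6%. The labels do not say what distinguishes the arrays of a group, and the source of this spread was not tested.

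Further subunits and partners, among them the demethylases KDM6A and KDM6B, which remove the PRC2 mark, were taken as a list of 38 genes chosen with earlier results known. Of these, 37 were tested, and 0 were called. Differences were above 0 for 21 and below for 16, with a median of 0.01, and at an unadjusted p under 0.05 limma counted 3 higher and 1 lower of the 37, beside 5.5% of all genes. KDM6A and KDM6B differed by 0.16 and 0.27. SKIDA1, named for its SKI/DACH domain, had the smallest p of the 37. It read 7.07 and 7.14 on the sh-ACTL6A arrays, against 5.69 and 5.40 on the scramble arrays (limma adjusted p = 0.459). The scramble mean of 5.55 lay below the threshold of 5.63, so SKIDA1 passed the filter only through the sh-ACTL6A arrays, and the size of its difference and its place in the count of 3 rest on that.

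SCML1, related to the Drosophila protein Sex comb on midleg, read 9.87 and 9.82 on the sh-ACTL6A arrays, against 10.66 and 10.34 on the scramble arrays (-0.66 ± 0.17, SE, limma adjusted p = 0.619). HCFC1, a partner of BAP1, read 9.39 and 9.81, against 8.91 and 9.16 (0.57 ± 0.20, SE, limma adjusted p = 0.848). Groups of both genes lay apart. So did those of 6 of the 37 genes in each direction (16.2%), beside 19.3% of all genes higher and 15.4% lower. Without sh-ACTL6A replicate 1 both were called (limma adjusted p = 0.0492 for SCML1 and 0.0452 for HCFC1), in a fit whose spread came from the scramble arrays alone and which called 3.26% of all genes tested. HCFC1 stood at -0.07 when all its probe sets were averaged, and at 0.20 when only those above the threshold were.

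Classical Polycomb target genes, a list of 39 developmental regulators chosen in the same way, could be tested for 21, with 12 below the signal threshold and 6 not analysed here. The 21 had 11 differences above 0 and 10 below, a median of 0.01, and 0 called. At an unadjusted p under 0.05 limma counted 1 higher and 1 lower of the 21, beside 5.5% of all genes. FOXA2, a pioneer factor of gut endoderm, read 7.81 and 7.80 on the sh-ACTL6A arrays, against 8.62 and 8.51 on the scramble arrays (-0.76 ± 0.19, SE, limma adjusted p = 0.619). SOX2, a stem cell factor also found in gastric epithelium, read 9.08 and 8.99, against 8.63 and 8.55 (0.45 ± 0.17, SE, limma adjusted p = 0.862). GATA2, a blood and endothelial factor, read 8.23 and 7.99, against 8.47 and 8.53 (-0.38 ± 0.20, SE, limma adjusted p = 0.918). Groups of all 3 genes lay apart, in both directions. Over the 21, groups did not overlap for 6 genes with sh-ACTL6A higher (28.6%), beside 19.3% of all genes. The same held for 5 with sh-ACTL6A lower (23.8%), beside 15.4%. SOX2 stood at -0.11 when all its probe sets were averaged, and at 0.03 when only those above the threshold were.

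**Figure D4:**
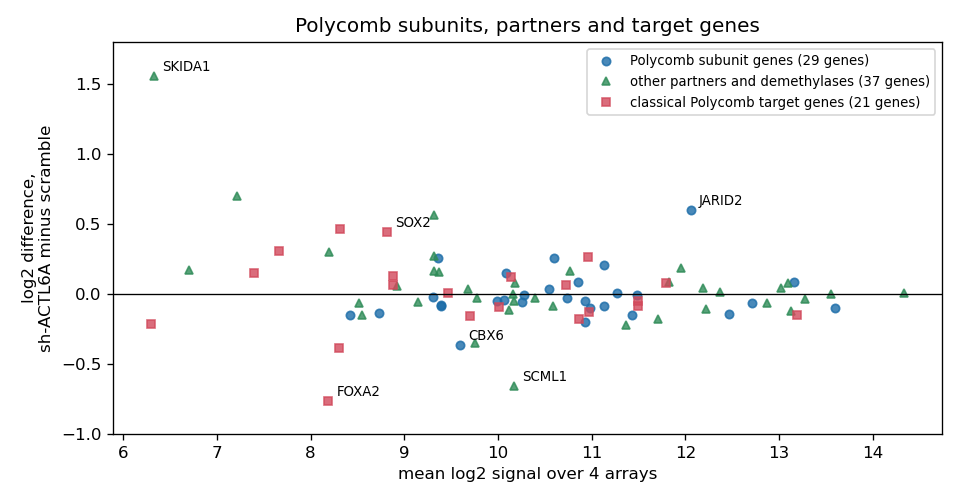
Difference (y axis, log2 scale, sh-ACTL6A minus scramble) against mean log2 signal over the 4 arrays (x axis) for 29 Polycomb genes, 37 partners and demethylases and 21 target genes. Each point is 1 gene, and none of them passed the test. The scramble mean of SKIDA1, the highest point, lies below the signal threshold, so its height is not a measured fold.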

How the data were processed

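Total RNA of the 4 samples was hybridised as biotin-labelled cRNA. Values deposited by the authors were log2 signals, 54675 probe sets on each array. The submitters' processing notes name MAS5, of unstated version, which scales each array alone. The linear mean after trimming 2% at each end was 500.0 on every array. No further scaling was applied. Of 54613 non-control probe sets, 41091 had 1 gene symbol in the platform's table, 1801 several and 11721 none. The identifiers of the 29 measured Polycomb genes matched RefSeq (GRCh38.p14).

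The brightest probe set by mean log2 signal stood for its gene. Differences were fitted with limma 3.58.1 in R 4.3.3 (lmFit, eBayes with an intensity trend, 7.65 degrees of freedom), 2-sided, with Benjamini-Hochberg adjustment over 12286 genes, and again over 54613 probe sets. The fit was tested on simulated data. The number of arrays, 2 per group, limits the precision. Figures were drawn with matplotlib 3.10.9.

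The Polycomb genes, the other lists and the motifs were chosen with earlier results of these data known. By rule, values on all arrays were given for ACTL6A, for members at an unadjusted p under 0.05, for the 2 with the smallest p in each complex, and for the 3 with the smallest p in each other list. Members whose probe sets disagreed were named, and array values of further members were added after they were seen.

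Other settings comprised quantile normalisation, centring on the median, dropping the filter on dim genes or raising it to the 75th percentile, averaging all probe sets, an offset of 4.34 on the linear signal, no intensity trend, a replicate block, omission of single arrays, the methods' t-test and a fit over every probe set. An average over only the probe sets above the threshold was added after seeing the data.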

Additional observations from a re-analysis of the deposited data

How the results depend on the processing

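The ACTL6A difference kept its direction under all 15 alternatives. Its limma call was lost after quantile normalisation (-1.64, adjusted p = 0.0528). At -1.63 it was also lost with no filter on dim genes (adjusted p = 0.0797), without the intensity trend (0.556), with every probe set tested (0.281) and with the methods' t-test (0.844). Leaving out 1 array gave -1.71 to -1.55. The count of genes called was 0 under these same 5 settings and 2 with the replicate block, and 0 to 401 when 1 array was left out, with 335 without sh-ACTL6A replicate 2. The labels give both groups the numbers 1 and 2 with no shared origin, and deviations of same-numbered arrays correlated at 0.0565 over genes, so no pairing was assumed. This correlation does not describe single genes. The 3′ over 5′ ACTB signal was higher on replicate 1 of each group (1.21 and 1.63) than on replicate 2 (0.78 and 0.78). With the replicate block, the limma adjusted p of ACTL6A was 0.00704 and the limma unadjusted p of JARID2 was 0.0363.

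The count of Polycomb genes called stayed at 0 under every alternative except the fit without sh-ACTL6A replicate 2, where JARID2 was called (range 0 to 1). At an unadjusted p under 0.05 the count was 1 with the replicate block, the t-test and both averages of probe sets, 2 with every probe set tested, and 0 to 8 with 1 array left out. The 8 came from the fit without sh-ACTL6A replicate 2, whose spread came from the scramble arrays alone. With every probe set tested, the share of all probe sets at an unadjusted p under 0.05 was 5.01%. The share of all genes was not counted with the replicate block, the t-test, the averages of probe sets or 1 array left out. The counts under those settings therefore cannot be read as a result particular to the Polycomb genes. The median of the 29 genes was 0.028 with the mean of all probe sets and -0.093 to 0.03 with 1 array left out.

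Single genes changed sign as follows. Quantile normalisation gave RYBP 0.0004, and median centring gave RING1 0.0095, PCGF3 0.029, PCGF6 0.0082 and RYBP 0.027, while the median of all genes moved to 0.0409 under median centring, beside 0.009. The mean of all probe sets gave SUZ12 0.56, EED 0.20, PHC3 0.14, PCGF3 0.091, PCGF5 0.065, RYBP 0.25, YAF2 0.028, HCFC1 -0.067 and SOX2 -0.11. The mean of bright probe sets, chosen after seeing the data, gave EED 0.20, PHC3 0.031, PCGF3 0.091, PCGF5 0.065, RYBP 0.15 and YAF2 0.028. With 1 array left out, the ranges that crossed 0 were EZH1 -0.30 to 0.13, EZH2 -0.077 to 0.094, SUZ12 -0.31 to 0.034, JARID2 -0.040 to 1.24, MTF2 -0.064 to 0.23, PHF1 -0.056 to 0.13, RING1 -0.12 to 0.074, PCGF2 -0.42 to 0.03, CBX7 -0.31 to 0.042, PHC1 -0.39 to 0.24, PHC3 -0.16 to 0.057, PCGF3 -0.43 to 0.43, PCGF5 -0.41 to 0.29, PCGF6 -0.12 to 0.075, KDM2B -0.34 to 0.14, BCOR -0.15 to 0.064, RYBP -0.36 to 0.35, YAF2 -0.14 to 0.049, ASXL1 -0.0027 to 0.30 and ASXL2 -0.21 to 0.032. Of the 29 genes, 13 changed sign without sh-ACTL6A replicate 1, 4 without sh-ACTL6A replicate 2, 6 without scramble replicate 1 and 3 without scramble replicate 2. The causes were not tested. Dim signals limit what can be read, and 12 of the 92 probe sets lay below the threshold.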

Other observations

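BMI1, a PCGF subunit of canonical PRC1, was read only by a probe set annotated jointly to COMMD3-BMI1 and BMI1. It read 12.49 and 13.18 on the sh-ACTL6A arrays, against 12.96 and 12.85 on the scramble arrays, a difference of -0.07 ± 0.22 (SE). The sh-ACTL6A arrays lay on either side of the scramble arrays, as they did on the brightest probe sets of PCGF3 and PCGF5. A probe set annotated to SUZ12P1 and SUZ12, a pseudogene and its parent, read 11.82 and 11.74, against 11.85 and 11.92 (-0.11 ± 0.11, SE), with groups that did not overlap. One annotated to M6PR and PHC1 read 12.10 and 11.71, against 11.81 and 11.86 (0.07 ± 0.15, SE), with groups that overlapped. None of these was tested as a Polycomb gene, since the signal cannot be assigned to 1 gene.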
